A study of Mus musculus with 22 samples.

Results

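Gata4, Gata6, Sox17, Sox7, Pdgfra, Foxa2 and Dab2 are genes that mark or specify the primitive endoderm, an extraembryonic layer of the early mouse embryo. These 7 genes, of 55487 listed in the files, were chosen by name and followed in every group in which they were measured. RNA came from Dux-/- mouse embryonic stem cells kept in 2iLIF, a medium that holds such cells in a naive pluripotent state. Every group, the control included, therefore lacked the endogenous Dux gene, and every group received 0.25 ug/mL doxycycline for 12 hours. The lines differed in the mCherry-tagged protein they carried. The group mCherry was labelled with the red fluorescent tag alone and FL with full-length DUX, a double homeodomain transcription factor that activates genes of the 2-cell embryo. C3+14, C1+14, C1C3a, C1C3b, C1C3c, C12345delt14, deltC12345+14 and deltC12345delt14 were labelled as derivatives of DUX. As background on the study, C1 to C5 are repeats in the carboxy-terminal part of DUX and 14 is its short end (14aa in some labels), but the labels do not spell these out, nor what separates a, b and c. C3delt14 was not analysed here. The labels do not say whether a line was 1 clone, nor whether the 2 replicates of a group were separate cultures. The p-values then measure only the spread between these samples, which may be technical.

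The primitive endoderm arises in the inner cell mass of the blastocyst beside the epiblast. FGF4 from epiblast-fated cells signals through FGF receptors and ERK, GATA6 opposes NANOG, and GATA4, SOX17 and SOX7 then act as the layer matures. PDGFRA is the surface receptor that marks these cells, FOXA2 is a forkhead factor of endoderm, and DAB2 is an endocytic adaptor used to position the cells. Naive embryonic stem cells in 2i, which blocks MEK, keep most of these genes low.

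The 20 libraries fall into 10 groups of 2 and came in 2 tables that were scaled separately. The table with mCherry holds 14 libraries of 7 groups, and the table with the delt constructs holds 8 libraries of 4 groups. The same FL libraries are in both, since their reads differed at 0 genes. Totals ran from 21059953 to 32543856 reads in the former and from 27326760 to 40448890 in the latter. Values are normalised reads, meaning the reads of a gene over the size factor of that library. In the table with mCherry, Pearson's r between replicates over all tested genes (log2 scale) was lowest for FL, 0.964, and highest for mCherry, 0.993. The FL replicates stood furthest apart, differing over 2-fold at 4340 of 21584 genes tested. Reads in processed pseudogenes made up 4.06% and 4.13% of the mCherry libraries and between 5.72% and 8.29% of the other libraries of that table. The mitochondrial share of reads was at least 9.02% in both C3+14 libraries, 5.16% and 5.22% in mCherry, 3.60% and 2.46% in C1+14, and between 3.54% and 6.19% in the other libraries of that table. Both shares differed between groups, and their part in the results below was not tested.

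All 7 genes were scarce. The highest level of any of them in the table with mCherry, scaled for exon length and library total, was 2.35 RPKM, for Foxa2 in C3+14 replicate 2. In that table, read numbers per library ranged from 0 to 19 for Sox7 and from 35 to 297 for Dab2. In bulk RNA, fewer cells with a transcript and less transcript per cell cannot be told apart. Pou5f1, a pluripotency factor, was not called against mCherry in any of the 6 constructs, with means between 9465 normalised reads in C1C3c and 20062 in FL, against 12555 in mCherry. Nanog, which antagonises Gata6, was at 16060.5 ± 217 in mCherry, 10172 ± 1381 in C1+14, 8950 ± 30.3 in C1C3a, 6948 ± 211 in C3+14, 6551 ± 2755 in C1C3c, 5821 ± 1741 in FL and 1180 ± 182 in C1C3b (SD, n = 2 each). It was thus lowest in C1C3b, where Gata6 was highest, and second lowest in FL, where Gata6 was lowest.

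Against mCherry, Sox17 rose with all 6 constructs and Foxa2 rose with 5. Pdgfra rose with 4 constructs, Gata6 with 3 and Gata4 with 1. Sox7 fell with 2 and Dab2 fell with 1. A gene was called changed when limma gave a Benjamini-Hochberg adjusted p under 0.05 and the log2 fold change was 1 or more in either direction, over all 21584 genes tested. All 7 members passed the filter on low values in this table. The 6 comparisons share the 2 mCherry libraries, so they are not independent of one another.

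C1C3b was the construct with 5 members higher and 0 lower, beside 44.7% of all genes tested called in either direction, 27.6% higher and 17.1% lower. In C3+14, 4 members were higher and 1 lower, where 47.3% of all genes were called, 29.6% higher and 17.7% lower. In C1C3a, 4 were higher and 1 lower, where 46.4% were called, 27.4% higher and 19% lower. In C1C3c, 3 were higher and 0 lower, beside 28.8% called, 18.3% higher and 10.5% lower. In C1+14, 2 were higher and 0 lower, beside 18.3% called, 12.4% higher and 5.95% lower. In FL, 1 was higher and 1 lower, beside 44.2% called, 24.5% higher and 19.6% lower. The count for FL is thus near or under the background of that comparison, and those for C1C3b, C3+14 and C1C3a stand in comparisons where close to every other gene was called. The median log2 fold change of the 7 genes was 2.78 in C1C3b, 1.89 in C3+14, 1.63 in C1C3c, 1.59 in C1C3a, 1.08 in C1+14 and -0.53 in FL. Over all genes tested the median was 0.15 in C1C3b, 0.23 in C3+14, 0.01 in C1C3c, 0.12 in C1C3a, 0 in C1+14 and 0.09 in FL. When the libraries were instead scaled to equal totals, that median moved to -0.86 in FL, -0.73 in C1C3a and -0.52 in C3+14, so directions near 0 depend on the scaling in these groups. The share of called genes that were higher in FL was 55.5%, and it was 41.2% after quantile normalization and 28.0% with equal totals.

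**Figure D1:**
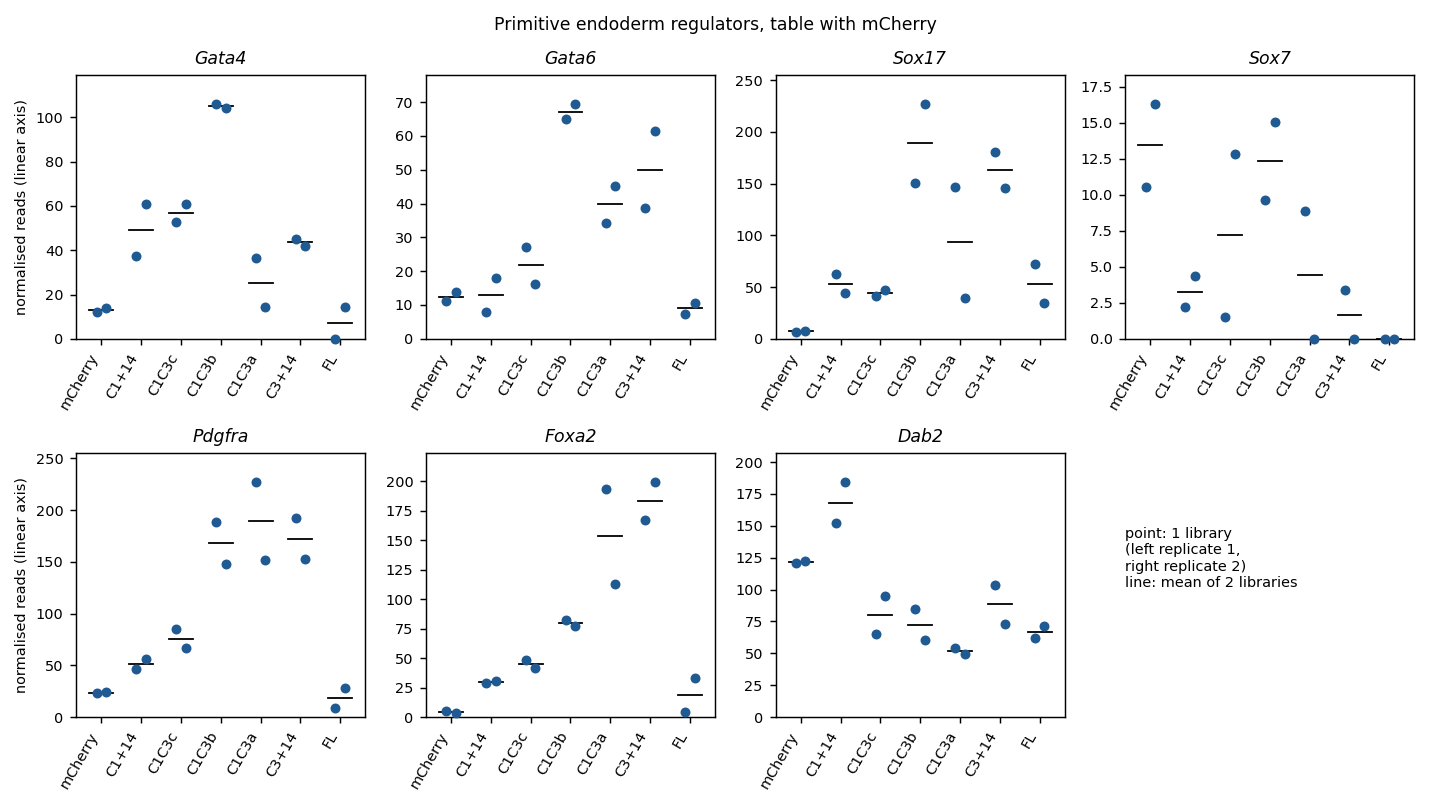
Normalised reads (linear axis) of each of the 7 genes in the 7 groups of the table with mCherry. Each point is 1 library and each line the mean of 2. The Sox17 libraries of every construct lie above both mCherry libraries, Foxa2 and Pdgfra are highest in C3+14, C1C3a and C1C3b, and Dab2 is highest in C1+14.

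Sox17 (ENSMUSG00000025902, chromosome 1, 4490931 to 4497354, minus strand, GRCm38) encodes an SRY-related factor of the SOX F group that drives endoderm differentiation. It had 6.60 and 7.72 normalised reads in the mCherry libraries, 62.9 and 44.0 in C1+14, and 41.5 and 47.3 in C1C3c. It had 151 and 227 in C1C3b, 147 and 39.6 in C1C3a, 181 and 146 in C3+14, and 72.2 and 34.5 in FL. No library of any construct overlapped mCherry, whereas C1+14, FL and C1C3c overlapped one another, and the C1C3a replicates differed widely. The log2 fold change against mCherry was 4.52 (SE 0.52, adjusted p 8.98e-06) in C1C3b and 4.33 (SE 0.52, adjusted p 1.05e-05) in C3+14. It was 3.25 in C1C3a (adjusted p 0.000127), 2.72 in C1+14 (adjusted p 0.00187), 2.65 in FL (adjusted p 0.000695) and 2.48 in C1C3c (adjusted p 0.00194). Each of these 6 calls held under all 13 alternatives tried. The value in C1C3a was 2.32 without C1C3a replicate 1 and 4.19 without C1C3a replicate 2. Sox17 was the member called in FL in the upward direction, with a mean of 53.4 ± 26.6 against 7.16 ± 0.794 (SD, n = 2 each). Of its transcript 50-mers, 15.0% also occur in other genes when both strands are searched, the highest share among the members. Reads of such stretches could be assigned elsewhere, and this was not tested. Gm37587, which overlaps Sox17 on the opposite strand, held 0 reads in every library.

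Sox7 (ENSMUSG00000063060, chromosome 14, 63943673 to 63950732, plus strand), another SOX F factor of primitive endoderm, moved the other way. It had 10.6 and 16.3 normalised reads in mCherry, 2.19 and 4.34 in C1+14, and 1.51 and 12.8 in C1C3c. It had 9.65 and 15.0 in C1C3b, 8.86 and 0 in C1C3a, 3.35 and 0 in C3+14, and 0 and 0 in FL. These are few reads: mCherry held 16 and 19, C3+14 held 2 and 0, and both FL libraries held none. Against the 3 reads per library that a count of 0 allows, Sox7 was at least 3.36-fold lower in FL (log2 fold change of the fit -3.82, SE 1.05, adjusted p 0.00656), and this call held under all 13 alternatives. In C3+14 the ratio to mCherry was 0.126, with an exact 95% interval from 0.0147 to 0.491 that covers counting error only. Its call there (adjusted p 0.0346) was lost in 7 of 13 alternatives. Those were a pseudocount of 0.1, no filter, edgeR (adjusted p 0.0794), DESeq2 (adjusted p 0.118), and leaving out mCherry replicate 1 (0.0762), mCherry replicate 2 (0.146) or C3+14 replicate 2 (0.266). In C1C3b, where Sox17 was highest, Sox7 overlapped mCherry (log2 fold change -0.11, SE 1.05, adjusted p 0.947). In C1C3a it was not called (log2 fold change -2.17, adjusted p 0.0878), but without C1C3a replicate 1 it was, at -3.82 with adjusted p 0.00893.

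Gata6 (ENSMUSG00000005836, chromosome 18, 11052064 to 11085635, plus strand) is the GATA factor that initiates the primitive endoderm fate. It had 11.2 and 13.7 normalised reads in mCherry, 8.04 and 18.0 in C1+14, and 27.1 and 16.2 in C1C3c. It had 64.9 and 69.5 in C1C3b, 34.3 and 45.3 in C1C3a, 38.5 and 61.5 in C3+14, and 7.37 and 10.7 in FL. C1C3b stood above all other libraries, C3+14 and C1C3a overlapped each other, and both FL libraries lay under both mCherry libraries. The log2 fold change against mCherry was 2.35 (SE 0.47, adjusted p 0.000817) in C1C3b, a ratio of means of 5.39, and this call held under all 13 alternatives. It was 1.89 (SE 0.47, adjusted p 0.00338) in C3+14, a call that was lost after quantile normalization (log2 fold change 0.99, adjusted p 0.0956) and with equal totals (1.14, adjusted p 0.0518). In C1C3a it was 1.59 (SE 0.47, adjusted p 0.00987). That call was lost under the same scalings (0.63 and 0.72) and without mCherry replicate 1 (1.46, adjusted p 0.0611) or C1C3a replicate 2 (1.40, adjusted p 0.0619). In FL the difference was -0.44 (SE 0.47, adjusted p 0.443) and was not called, although quantile normalization (-1.31, adjusted p 0.0346) and equal totals (-1.36, adjusted p 0.0230) gave a call.

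Gata4 (ENSMUSG00000021944, chromosome 14, 63198922 to 63271692, minus strand) is the GATA factor that acts after Gata6 in this lineage. It had 11.9 and 13.7 normalised reads in mCherry, 37.3 and 60.8 in C1+14, and 52.8 and 60.9 in C1C3c. It had 106 and 104 in C1C3b, 36.5 and 14.2 in C1C3a, 45.2 and 42.1 in C3+14, and 0 and 14.3 in FL. C1C3b was again highest and apart from the other groups, and every construct except FL lay above both mCherry libraries. In C1C3b the log2 fold change was 2.95 (SE 0.89, adjusted p 0.0116), with means of 105 ± 1.36 against 12.8 ± 1.31 (SD, n = 2 each). That call was lost with a pseudocount of 0.1 (adjusted p 0.125) and without C1C3b replicate 1 (2.93, adjusted p 0.0515) or mCherry replicate 1 (2.85, adjusted p 0.0542). In C1C3c (2.07, adjusted p 0.0763), C1+14 (1.82, adjusted p 0.142) and C3+14 (1.70, adjusted p 0.113) the gene was not called by limma. In those 3 groups both edgeR and DESeq2 on the recovered reads called it, with edgeR's adjusted p at 0.00962, 0.0228 and 0.0328 respectively. In C1C3a the difference was 0.79 (adjusted p 0.457), and it was -0.16 after quantile normalization and -0.07 with equal totals. The FL libraries held 0 and 12 reads (-1.82, adjusted p 0.0943). Gata4 was called lower in FL after quantile normalization (-2.545, adjusted p 0.0209) and with equal totals (-2.40, adjusted p 0.0216). In the main fit its log2 fold change was -3.78 without FL replicate 2 and 0.15 without FL replicate 1.

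Foxa2 (ENSMUSG00000037025, chromosome 2, 148042877 to 148046969, minus strand), a forkhead pioneer factor of endoderm, showed the largest log2 fold change among the 7 genes. It had 5.28 and 3.43 normalised reads in mCherry, 29.2 and 31.0 in C1+14, and 48.2 and 41.9 in C1C3c. It had 82.4 and 77.0 in C1C3b, 194 and 113 in C1C3a, 168 and 199 in C3+14, and 4.42 and 33.3 in FL. The order of means ran from C3+14 and C1C3a, which overlapped, through C1C3b, C1C3c and C1+14, each apart from the next, to C1+14, FL and mCherry, where FL overlapped both neighbours. The log2 fold change was 5.12 (SE 0.63, adjusted p 1.23e-05) in C3+14, from a mean of 4.35 ± 1.31 in mCherry to 183 ± 22.4 (SD, n = 2 each). It was 4.82 (adjusted p 2.08e-05) in C1C3a, 3.94 (adjusted p 0.000138) in C1C3b and 3.12 (adjusted p 0.00142) in C1C3c, and these 4 calls held under all 13 alternatives. In C1+14 it was 2.56 (adjusted p 0.00810), lost after quantile normalization (1.80, adjusted p 0.0566) and without mCherry replicate 2 (2.31, adjusted p 0.0626). The FL replicates held 3 and 28 reads, the former within the mCherry range of normalised values and the latter above it (1.37, SE 0.63, adjusted p 0.0760). FL was called without replicate 1 (2.70, adjusted p 0.000214), by edgeR (1.96, adjusted p 0.0242) and by DESeq2 (2.14, adjusted p 0.00350).

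Pdgfra (ENSMUSG00000029231, chromosome 5, 75152292 to 75198215, plus strand) encodes the receptor for PDGF-A that is widely used to sort primitive endoderm. It had 23.1 and 24.0 normalised reads in mCherry, 46.0 and 56.4 in C1+14, and 85.2 and 66.3 in C1C3c. It had 189 and 148 in C1C3b, 227 and 151 in C1C3a, 193 and 152 in C3+14, and 8.84 and 28.6 in FL. C1C3a, C3+14 and C1C3b overlapped, C1C3c and C1+14 followed in that order without overlap, and FL overlapped mCherry. The log2 fold change was 2.92 (SE 0.43, adjusted p 6.12e-05) in C1C3a, 2.81 (adjusted p 8.74e-05) in C3+14, 2.78 (adjusted p 0.00011) in C1C3b and 1.63 (adjusted p 0.00791) in C1C3c. All 4 calls held under all 13 alternatives. C1+14 was not called (1.08, SE 0.43, adjusted p 0.0743), although edgeR (1.19, adjusted p 0.0347) and DESeq2 (1.12, adjusted p 0.0194) called it. FL was not called either (-0.53, SE 0.43, adjusted p 0.312), and its value was 0.27 without FL replicate 1 and -1.32 without FL replicate 2. Pdgfra was called lower in FL after quantile normalization (-1.28, adjusted p 0.0237) and with equal totals (-1.48, adjusted p 0.0161).

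Dab2 (ENSMUSG00000022150, chromosome 15, 6299788 to 6440712, plus strand), the endocytic adaptor, was highest in C1+14 and lowest in C1C3a. It had 121 and 123 normalised reads in mCherry, 152 and 184 in C1+14, and 64.8 and 94.7 in C1C3c. It had 85.1 and 60.1 in C1C3b, 54.2 and 49.5 in C1C3a, 104 and 72.9 in C3+14, and 61.9 and 71.4 in FL. C1+14 lay above mCherry, and the libraries of all 5 other constructs lay below it. It fell in C1C3a (log2 fold change -1.22, SE 0.30, adjusted p 0.00291), a call that held under all 13 alternatives. FL (-0.86, adjusted p 0.0222) and C1C3b (-0.76, adjusted p 0.0399) passed on the adjusted p but not on size. Other settings made further calls. FL was called by edgeR (-1.02, adjusted p 0.00916), after quantile normalization (-1.14, adjusted p 0.00628) and with equal totals (-1.88, adjusted p 0.000222). C1C3b was called after quantile normalization (-1.01, adjusted p 0.0128) and without C1C3b replicate 1 (-1.01, adjusted p 0.0323), and C3+14 with equal totals (-1.26, adjusted p 0.00448).

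**Figure D2:**
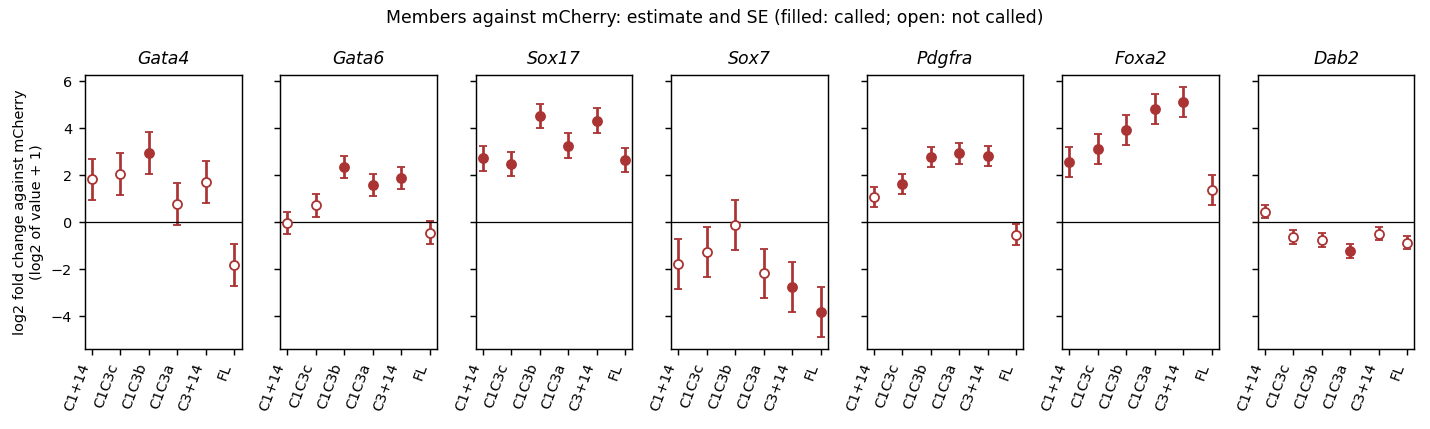
Log2 fold change (log2 of the normalised value + 1) of each gene in each of 6 constructs against mCherry, with its SE. Filled points were called and open points were not. Sox17 is filled in all 6 constructs, Foxa2 in 5 and Pdgfra in 4, whereas Sox7 and Dab2 lie at or under 0 in all but 1 point.

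Foxa2 and Pdgfra moved most alike among the members, with Pearson's r of 0.928 over the 14 libraries on the log2 scale, and Gata6 and Pdgfra followed at 0.887. Dab2 had negative coefficients with Gata6 (-0.44), Foxa2 (-0.39), Sox17 (-0.38) and Pdgfra (-0.31) and positive ones with Sox7 (0.35) and Gata4 (0.18). These libraries share constructs and scaling, so the coefficients are descriptions. To show the sequence in front of the genes that moved together and of Dab2, the 250 bases before annotated RefSeq starts (GRCm38.p6) are given 5′ to 3′ on the strand of each gene. The table used held starts for 3 of the 7 members: 3 for Foxa2, 1 for Pdgfra and 2 for Dab2. Capitals mark matches to AGATAA or TGATAA, a core bound by GATA factors, on either strand. The first window is Foxa2 at chr2:148046970-148047219 (minus strand), directly before the gene. The second is Foxa2 at chr2:148045465-148045714 (minus strand), inside an intron of the gene and before an internal start. The others are Pdgfra at chr5:75152001-75152250 and Dab2 at chr15:6299539-6299788 (both plus strand), before the genes, with 1 exon base at the end of the Dab2 window.
Foxa2 first start: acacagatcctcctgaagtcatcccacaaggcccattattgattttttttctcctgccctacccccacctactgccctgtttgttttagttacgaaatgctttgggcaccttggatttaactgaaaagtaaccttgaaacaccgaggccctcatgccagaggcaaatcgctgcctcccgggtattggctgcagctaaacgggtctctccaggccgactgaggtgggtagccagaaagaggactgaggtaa
Foxa2 internal start: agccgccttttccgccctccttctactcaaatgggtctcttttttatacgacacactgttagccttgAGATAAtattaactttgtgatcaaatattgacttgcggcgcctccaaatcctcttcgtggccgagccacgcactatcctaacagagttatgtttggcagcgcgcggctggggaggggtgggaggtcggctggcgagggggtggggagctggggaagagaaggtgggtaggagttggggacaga
Pdgfra: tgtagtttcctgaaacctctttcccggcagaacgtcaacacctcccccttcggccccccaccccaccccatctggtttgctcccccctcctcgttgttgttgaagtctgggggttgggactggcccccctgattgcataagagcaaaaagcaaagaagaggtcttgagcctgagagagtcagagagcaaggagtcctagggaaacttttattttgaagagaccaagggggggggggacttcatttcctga
Dab2: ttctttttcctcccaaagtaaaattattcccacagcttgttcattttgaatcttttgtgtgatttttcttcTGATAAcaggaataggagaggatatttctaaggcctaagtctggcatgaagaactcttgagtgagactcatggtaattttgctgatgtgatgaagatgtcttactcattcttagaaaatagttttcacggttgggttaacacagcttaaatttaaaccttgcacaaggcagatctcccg
The internal Foxa2 window and the Dab2 window hold 1 match each, in a background where 16.6% of 32851 windows of 250 bases hold at least 1. None of the 6 windows of members holds the palindromic DUX motif, searched on both strands and present in 0.0304% of all windows, or ACAAT, a SOX core present in 27.7%. The other Foxa2 window and the second Dab2 window held no match to any of these letters. A match describes letters only, and the DNA farther away was not searched.

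A further question is what distinguished the constructs from one another. C1+14 already had Sox17 and Foxa2 above mCherry, so the chimeras and FL were also set against C1+14, with 1 pair of C1+14 libraries shared by these comparisons. In C1C3b, Gata6, Pdgfra and Sox17 rose above C1+14 and Dab2 fell, 4 of 7 members, where 28.9% of all genes were called, 17.9% higher and 11% lower. Their log2 fold changes were 2.38 (SE 0.47, adjusted p 0.00126) for Gata6, 1.69 (SE 0.43, adjusted p 0.00640) for Pdgfra, 1.79 (SE 0.52, adjusted p 0.0135) for Sox17 and -1.22 (SE 0.30, adjusted p 0.00477) for Dab2. Gata6 held under all 13 alternatives. Sox17 was lost without C1C3b replicate 2 (1.50, adjusted p 0.103) or C1+14 replicate 2 (1.54, adjusted p 0.0881), Pdgfra without C1C3b replicate 1 (1.52, adjusted p 0.0524) and Dab2 without C1C3b replicate 2 (-0.97, adjusted p 0.0522).

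In C1C3a, Gata6, Pdgfra and Foxa2 rose above C1+14 and Dab2 fell, again 4 of 7, where 40.8% of all genes were called, 23.4% higher and 17.3% lower. Foxa2 differed by 2.26 (SE 0.63, adjusted p 0.00783), Pdgfra by 1.84 (SE 0.43, adjusted p 0.00265), Gata6 by 1.63 (SE 0.47, adjusted p 0.00980) and Dab2 by -1.67 (SE 0.30, adjusted p 0.000332). Dab2 held under all 13 alternatives. Foxa2 was lost without C1C3a replicate 1 (1.88, adjusted p 0.0690), and Gata6 without C1C3a replicate 2 (1.43, adjusted p 0.0637) or C1+14 replicate 1 (1.09, adjusted p 0.108), after quantile normalization (1.02, adjusted p 0.0921) and when only the 2 groups were fitted (adjusted p 0.0600). The Gata6 call thus held in 8 of 13 alternatives. With equal totals Foxa2, Pdgfra and Gata6 were all lost, at 1.15, 0.72 and 0.55. Sox17 was not called for C1C3a against C1+14 (0.53, adjusted p 0.404), and its C1C3a replicates lay on both sides of the C1+14 libraries. Without C1C3a replicate 2 Sox17 was called (1.47, adjusted p 0.0243).

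C1C3c stood closest to C1+14. Dab2 was the 1 member called, which fell (-1.08, SE 0.30, adjusted p 0.0279), where 7.83% of all genes were called, 5.37% higher and 2.46% lower. The number of all genes called there was 1690, against 551 without C1C3c replicate 2, 700 without C1+14 replicate 2 and 0 when only the 2 groups were fitted. The Dab2 call was lost without C1C3c replicate 1 (-0.82, adjusted p 0.133), C1C3c replicate 2 (-1.35, adjusted p 0.0537) or C1+14 replicate 2 (-0.95, adjusted p 0.181), after quantile normalization (-0.98) and when only the 2 groups were fitted (adjusted p 0.224). In FL, Gata4 (-3.64, SE 0.89, adjusted p 0.00355), Pdgfra (-1.61, SE 0.43, adjusted p 0.00642) and Dab2 (-1.32, SE 0.30, adjusted p 0.00197) were below C1+14, 3 of 7, where 39.9% of all genes were called, 21.5% higher and 18.4% lower. When only the 2 groups were fitted, neither Gata4 (adjusted p 0.110) nor Pdgfra (adjusted p 0.122) was called. Gata4 was at -1.67 (adjusted p 0.0216) without FL replicate 1 and at -5.60 without FL replicate 2. Pdgfra was not called without FL replicate 1 (-0.81, adjusted p 0.0736) and was at -2.40 (adjusted p 0.000165) without FL replicate 2. Without FL replicate 2, Foxa2 was also below C1+14 (-2.52, adjusted p 0.00041). FL and C1+14 had close means of Sox17, 53.4 ± 26.6 and 53.4 ± 13.3 normalised reads (SD, n = 2 each).

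C3+14 and FL differed at 5 of the 7 genes, all higher in C3+14, where 26.3% of all genes were called, 16.8% higher and 9.54% lower. Foxa2 differed by 3.75 (SE 0.63, adjusted p 0.000462), Gata4 by 3.51 (SE 0.89, adjusted p 0.00692), Pdgfra by 3.34 (SE 0.43, adjusted p 6.37e-05), Gata6 by 2.33 (SE 0.47, adjusted p 0.00168) and Sox17 by 1.68 (SE 0.52, adjusted p 0.0211). No library of FL reached any library of C3+14 at these 5 genes. The calls of Foxa2, Pdgfra and Gata6 held under all 13 alternatives, but several sizes depended on the FL replicate. Without FL replicate 1, Gata4 was at 1.55, Foxa2 at 2.42 and Pdgfra at 2.54. Without FL replicate 2 they were at 5.48, 5.08 and 4.13. Sox17 was lost without FL replicate 2 (1.16, adjusted p 0.154), C3+14 replicate 1 (1.52, adjusted p 0.112) or C3+14 replicate 2 (1.83, adjusted p 0.0657), and Gata4 when only the 2 groups were fitted (adjusted p 0.101).

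The table with the delt constructs asks what the repeats and the 14aa end contribute. It has no mCherry group, so its values are given against FL and against deltC12345delt14, the construct labelled as lacking both. No member was called in any of its 4 comparisons, with 6 of the 7 genes tested (Sox7 did not pass the filter). This was so with limma, edgeR and DESeq2 alike. Of 19833 genes tested, 0.958% were called for C12345delt14 against FL (0.338% higher, 0.62% lower) and 38.4% for deltC12345+14 against FL (18.4% higher, 20% lower). The first of these rests on single libraries: its 190 genes became 0 without C12345delt14 replicate 1, C12345delt14 replicate 2 or FL replicate 1 and 1392 without FL replicate 2. It also became 0 with equal totals, 1172 with a pseudocount of 8 and 1293 in DESeq2. For C12345delt14 against deltC12345delt14, 22% were called (12.6% higher, 9.4% lower), against 0% for deltC12345+14 against deltC12345delt14. At an unadjusted p under 0.05, limma gave 3 members (Gata4, Gata6 and Sox17) in the first, 1 (Gata4) in the second and 0 in the other two. In the last comparison, limma called 0 genes in all, with 543 at an unadjusted p under 0.05, edgeR called 0 and DESeq2 3.

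Gata4 had 0 and 17.9 normalised reads in FL, 28.6 and 26.2 in C12345delt14, 37.9 and 33.8 in deltC12345+14, and 30.4 and 46.4 in deltC12345delt14. Gata6 had 9.06 and 13.4 in FL, 27.4 and 26.2 in C12345delt14, 34.4 and 18.0 in deltC12345+14, and 29.6 and 43.1 in deltC12345delt14. For both GATA genes the FL libraries lay below those of the other groups. FL was tested against C12345delt14 and deltC12345+14, and limma, edgeR and DESeq2 called neither gene there. In these 2 comparisons limma called 0.958% and 38.4% of all genes respectively. The difference between FL and deltC12345delt14 was not tested. Against FL, Gata4 in deltC12345+14 was at 3.08 (SE 1.16, adjusted p 0.0545), just short of the threshold, and at 2.71 (SE 1.16, adjusted p 0.198) in C12345delt14. Without FL replicate 2 it was called in both, at 5.20 (adjusted p 0.00125) and 4.83 (adjusted p 0.0301). Gata6 differed from FL by 1.10 (SE 0.51, adjusted p 0.0980) in deltC12345+14 and by 1.21 (SE 0.51, adjusted p 0.190) in C12345delt14. Quantile normalization called both GATA genes in deltC12345+14 against FL (3.32 with adjusted p 0.0211 for Gata4, 1.87 with adjusted p 0.0145 for Gata6). Equal totals called both of them and Pdgfra (1.86, adjusted p 0.0485).

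Sox17 had 88.8 and 43.2 normalised reads in FL, 29.7 and 24.6 in C12345delt14, 37.2 and 50.3 in deltC12345+14, and 34.5 and 29.0 in deltC12345delt14. FL lay above C12345delt14 without overlap (log2 fold change of C12345delt14 against FL -1.17, SE 0.47, adjusted p 0.174) but overlapped deltC12345+14. Foxa2 had 5.44 and 41.7 in FL, 43.4 and 14.8 in C12345delt14, 8.42 and 7.18 in deltC12345+14, and 0 and 11.6 in deltC12345delt14. Its C12345delt14 libraries were above both deltC12345delt14 libraries (2.90, SE 1.30, adjusted p 0.120), and without deltC12345delt14 replicate 2 that difference was called (4.73, adjusted p 0.0388). Pdgfra had 10.9 and 35.7 in FL, 51.4 and 21.3 in C12345delt14, 24.5 and 45.2 in deltC12345+14, and 33.7 and 24.0 in deltC12345delt14. All 4 groups overlapped at this receptor. Dab2 had 76.1 and 89.3 in FL, 83.4 and 29.5 in C12345delt14, 23.1 and 175 in deltC12345+14, and 90.3 and 62.2 in deltC12345delt14. Its deltC12345+14 replicates stood furthest apart, and all groups overlapped. Sox7 had 0 reads in both FL and both C12345delt14 libraries, 0 and 5 reads in deltC12345+14 and 2 and 17 in deltC12345delt14. Scaled for exon length and library total, Sox17 was at 0.322 and 0.254 RPKM in deltC12345delt14 and 0.338 and 0.480 in deltC12345+14. It was at 0.319 and 0.194 in FL and at 0.0672 and 0.0787 in mCherry of the other table. On that scale Gata4 and Gata6 of deltC12345delt14 also lay above mCherry, Dab2 lay below it, and Foxa2, Pdgfra and Sox7 overlapped it. RPKM uses library totals, a scaling that lowers FL against deltC12345+14. With equal totals, the median log2 fold change over all genes of deltC12345+14 against FL was 1.11, and it was -0.08 in the main fit. No test was made between the tables.

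**Figure D3:**
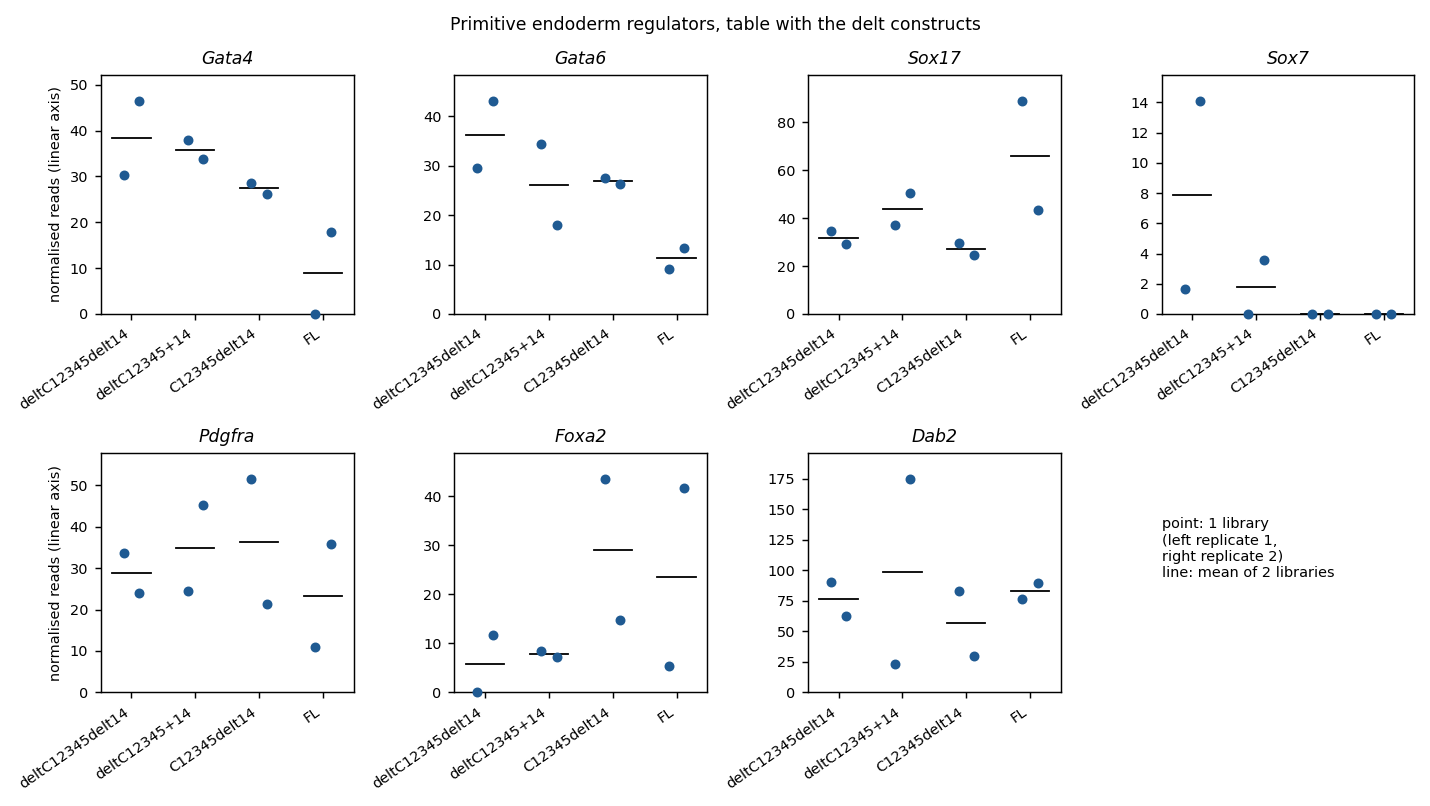
Normalised reads (linear axis) of each gene in the 4 groups of the table with the delt constructs. Each point is 1 library and each line the mean of 2. Gata4 and Gata6 are lowest in FL, Sox17 has its highest library in FL, and Pdgfra and Dab2 overlap across groups.

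Most genes of the PDGF pathway list fell or were not called. Of 5 genes in that list (Pdgfa, Pdgfb, Pdgfc, Pdgfd and Pdgfrb), all tested against mCherry, 4 fell in FL, C3+14 and C1C3a each, 3 fell and 1 rose in C1C3b, 2 fell in C1C3c and 1 fell in C1+14. The share of all genes that fell was 19.6% in FL, 17.7% in C3+14, 19% in C1C3a and 17.1% in C1C3b. It was 10.5% in C1C3c and 5.95% in C1+14, and 27.6% of all genes rose in C1C3b. Pdgfa, the main ligand of PDGFRA in the embryo, fell in all 6. Its mean was 1496 ± 46.2 normalised reads in mCherry, 507 ± 55.6 in C1+14, 359 ± 1.76 in C1C3c, 323 ± 63.2 in FL, 181 ± 18.2 in C1C3a, 146 ± 14.0 in C3+14 and 87.5 ± 19.6 in C1C3b (SD, n = 2 each). The log2 fold change of Pdgfa was -4.10 (SE 0.20, adjusted p 3.25e-09) in C1C3b and -1.56 (SE 0.20, adjusted p 0.000109) in C1+14. The gene that rose in C1C3b, named after its values were seen, was Pdgfd, at 2.82 and 309 normalised reads in the replicates against 1 read in both mCherry libraries together, and its call was lost after quantile normalization. Pdgfrb fell in FL (-1.39), C3+14 (-2.27), C1C3a (-3.72) and C1C3b (-2.42). In the other table Pdgfa was higher in deltC12345+14 than in FL (2.03, SE 0.25, adjusted p 0.000632).

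FGF and ERK signalling genes fell or were not called, with 1 exception. Of 10 tested, 6 fell in FL, 5 in C3+14, 5 in C1C3b, 4 in C1C3c, 3 in C1C3a and 2 in C1+14, and Fgf5, named after its values were seen, rose in C1C3b. The share of all genes that fell was 19.6% in FL, 17.7% in C3+14, 17.1% in C1C3b, 10.5% in C1C3c, 19% in C1C3a and 5.95% in C1+14. The count for C1C3a lies nearest to its share, and the 2 calls in C1+14, of Fgf4 and Spry4, depended on the scaling. Neither count is read as a result about the list. Fgf4, the ligand that induces primitive endoderm, fell in all 6, from 3884 ± 37.4 normalised reads in mCherry to 1176 ± 237 in C1+14 and 29.8 ± 13.6 in C1C3b (SD, n = 2 each). The ERK-responsive genes Etv5 and Spry4 each fell in 5 of the 6 constructs, with Etv5 at -3.20 in C1C3b (SE 0.20, adjusted p 2.86e-08). The Fgf4 and Spry4 calls in C1+14 were lost after quantile normalization, that of Fgf4 also with equal totals, and the Fgf5 call was lost after quantile normalization.

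The next list holds products of more mature extraembryonic endoderm. In the basement membrane and secretion list of 9 tested genes, 2 rose and 1 fell in FL and in C1C3b, 3 rose and 1 fell in C3+14 and in C1C3a, 1 fell in C1C3c and 2 fell in C1+14. Of all genes, 44.2% were called in FL, 44.7% in C1C3b, 47.3% in C3+14, 46.4% in C1C3a, 28.8% in C1C3c and 18.3% in C1+14, so nothing is read from these counts about the list. The list's median log2 fold change was between -0.13 and 0.22 in the 6 comparisons. Col4a1 and Col4a2, the chains of collagen IV, rose in FL (1.34 and 1.80), C3+14 (1.29 and 1.55), C1C3a (1.20 and 1.65) and C1C3b (1.04 and 1.29), and Lamb1 in C3+14 (1.26) and C1C3a (1.10). Except for Col4a2 in C1C3b, those calls of Col4a1, Col4a2 and Lamb1 were lost with equal totals. Serpinh1, the collagen chaperone, fell in all 6, from -1.11 in C1+14 to -2.80 in C1C3a, although the C1+14 call was lost with equal totals.

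In the visceral endoderm list, 9 of 13 genes were tested (Ttr, Apoa1, Amn and Ihh were too low). Of these, 5 rose and 2 fell in C1C3b, 4 rose and 3 fell in C3+14, 3 rose in C1C3c, 2 rose in C1+14, and 2 rose and 2 fell in FL and in C1C3a. Among all genes, 27.6% rose and 17.1% fell in C1C3b, 29.6% and 17.7% in C3+14, and 18.3% and 10.5% in C1C3c. The shares were 12.4% and 5.95% in C1+14, 24.5% and 19.6% in FL, and 27.4% and 19% in C1C3a. The counts for FL and C1C3a lie near those shares. Foxa1, a forkhead factor related to Foxa2, rose in all 6, from 5.64 ± 0.514 normalised reads in mCherry to between 46.7 ± 7.32 in C1+14 and 244 ± 2.58 in C1C3a (SD, n = 2 each). Afp, the fetal serum protein made by visceral endoderm, also rose in all 6, from 4 reads in both mCherry libraries together (mean 1.52 normalised reads) to 10.5 ± 0.283 in FL, 109 ± 9.05 in C3+14 and 385 ± 36.7 in C1C3b. The Afp call in FL was lost after quantile normalization. Hnf4a, the nuclear receptor at the head of the visceral endoderm programme, fell in FL, C3+14, C1C3a and C1C3b. It had 0 reads in both FL libraries, which made it at least 6.92-fold lower there than in mCherry (27.6 ± 4.57). Lrp2, an endocytic receptor that works with Dab2 in that tissue, fell in the same 4 constructs, from -1.06 in C1C3b to -1.49 in FL on the log2 scale.

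Of 4 parietal endoderm genes tested, 0 were called in C3+14 and C1C3b, 1 rose in FL, 1 rose and 1 fell in C1C3c and C1+14, and 2 rose and 2 fell in C1C3a. Among all genes, 47.3% were called in C3+14, 44.7% in C1C3b, 44.2% in FL, 28.8% in C1C3c, 18.3% in C1+14 and 46.4% in C1C3a. Nothing is read from these counts about so short a list. Snai1 rose in FL (3.74) and C1C3a (3.64) and fell in C1+14 (-2.52) and C1C3c (-1.84). The last of these was lost in edgeR and DESeq2. Plat went the other way, falling in C1C3a and rising in C1C3c and C1+14, and both rises were lost after quantile normalization. In C1C3a, Sox18 rose and Thbd fell.

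**Figure D4:**
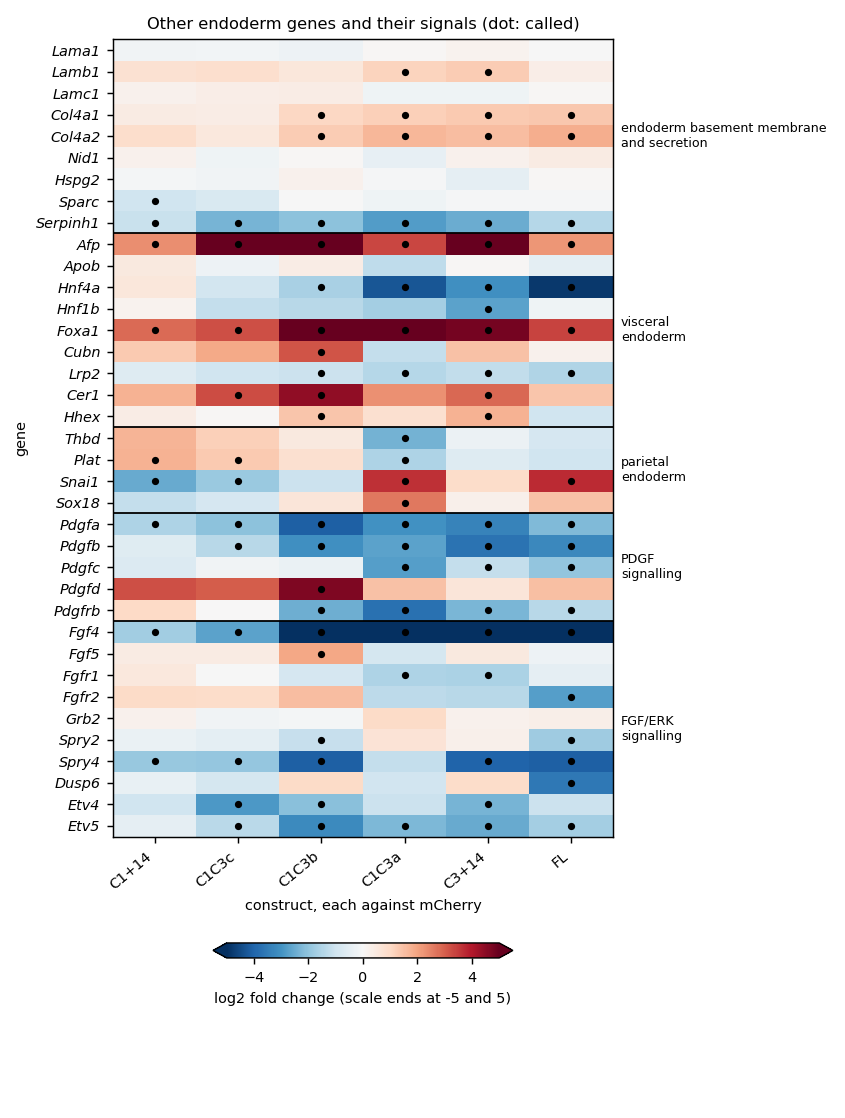
Log2 fold change against mCherry (colour, scale ending at -5 and 5) of the tested genes of 5 related lists in 6 constructs. Dots mark calls. Afp and Foxa1 are red in every column, and Pdgfa, Fgf4 and Serpinh1 are blue in every column.

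Markers of other cell types moved in the same libraries. Of 8 pluripotency genes, 7 fell in FL, 6 in C3+14 and in C1C3b, 5 in C1C3c, 3 in C1C3a and 2 in C1+14, and none rose. Among all genes, 24.5% rose and 19.6% fell in FL, 29.6% and 17.7% in C3+14, and 27.6% and 17.1% in C1C3b. The shares were 18.3% and 10.5% in C1C3c, 27.4% and 19% in C1C3a, and 12.4% and 5.95% in C1+14. Nothing is read from the counts below of trophoblast, definitive endoderm and mesendoderm, or other GATA and SOX F genes. Of 7 genes of 2-cell-like cells, 7 rose in C3+14 and C1C3a, 6 in FL and C1C3b, 4 in C1C3c and 2 in C1+14. The calls in C1+14 were Zscan4c and Zscan4d, both lost in edgeR, and Zscan4d was also lost in DESeq2. In C1C3c the Tcstv3 call was lost in edgeR and after quantile normalization. Zscan4c, of that list, had 0 reads in mCherry and means of 4.22 normalised reads in C1+14, 557 in C1C3c, 9427 in C1C3b, 216965 in C1C3a, 461923 in C3+14 and 656639 in FL. The order of constructs by Zscan4c was therefore not the order by Gata4 or Gata6, which were highest in C1C3b and lowest in FL. Foxa2 means did rise in the Zscan4c order from C1+14 through C1C3c, C1C3b and C1C3a to C3+14 (30.1, 45.1, 79.7, 153 and 183), but FL was at 18.9. Pdgfra rose in that order from C1+14 to C1C3a (51.2, 75.7, 168 and 189), with C3+14 at 172 and FL at 18.7. Sox17, Sox7 and Dab2 did not rise in that order. Trophoblast genes, 8 tested, mostly fell or were not called: 4 fell in FL, 3 in each other construct, and 3 rose in C3+14, 2 in C1C3b and 1 in C1C3a, C1C3c and C1+14 each. Among 6 genes of definitive endoderm and mesendoderm, 2 rose and 2 fell in C1C3b, 2 rose and 1 fell in C3+14, and 1 rose and 1 fell in C1C3a. In FL 2 fell and 0 rose, and C1C3c and C1+14 had 0 calls. T fell in C1C3b, where it was at least 9.46-fold lower than in mCherry. Cxcr4 rose in C3+14 (2.54), C1C3b (2.39) and C1C3a (1.23), the last lost under both other scalings. Eomes rose in C1C3b (1.19) and C3+14 (1.05), the latter lost under both other scalings and in edgeR. Cdx2, on both lists, fell in FL, C3+14, C1C3a and C1C3b. Among other GATA and SOX F factors, Gata2 fell in all constructs but C1C3b, Gata3 fell in FL and Sox18 rose in C1C3a, of 4 tested. The part of any of these cell types in the values of the 7 genes was not tested. Of 213 calls against mCherry in these lists and the members together, 0 changed direction under quantile normalization, equal totals, edgeR or DESeq2, and 20, 24, 9 and 5 respectively were lost.

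The genes most like each member were taken from 13508 other tested genes with a mean of at least 50, by Pearson's r over the 14 libraries on the log2 scale. Foxa2 was followed most closely by Cth (0.974) and Hoxa9 (0.963), and Pdgfra by Otx1 (0.968) and Qpctl (0.963). For Gata4 these were Rnf19a (0.976) and Nfil3 (0.975), and for Gata6 Fam107b (0.946) and Zfp212 (0.941). Sox17 was matched by Adamts1 (0.950) and Rnf219 (0.946), Sox7 by Bahd1 (0.883) and Bcl9l (0.879), and Dab2 by Pik3cd (0.900) and Retsat (0.897). Between 2.16% and 2.72% of the candidates exceeded 0.8 with Gata4, Gata6, Sox17, Pdgfra or Foxa2, against 0.281% for Sox7 and 0.304% for Dab2. The 14 libraries hold 7 groups, so high coefficients need few groups to match and are given as descriptions.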

How the data were processed

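RNA-seq libraries (stranded, poly(A)-selected) were analysed in 20 samples, 2 per group. The authors deposited the values as normalised signal, read counts per gene divided by a size factor per library, in 2 tables. This was read from the values: all 1220714 were whole multiples of their column's step (100%, tolerance 1e-06), so whole reads were recovered. Per the submitters' processing notes, Trim Galore 0.5.0, FastQC, DESeq2 and the build mm10 were used, without a stated role. The aligner and counting program are not given in the sources used here. Symbols came from GENCODE M21 for 55227 of 55487 identifiers.

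The 7 genes and the related lists were chosen with earlier results of these data known. Genes with at least 10 normalised reads in at least 2 libraries of a table were tested with limma 3.58.1 (R 4.3.3; lmFit and eBayes with a trend) on log2(value + 1). Fold changes on that scale understate changes of low genes. The spread was estimated jointly over the groups of each table, and 15 comparisons were made, with Benjamini-Hochberg adjustment over all genes tested in each. An exact two-sided permutation test of 2 libraries against 2 cannot give a p below 0.333. Every member was named, and from each other list up to 4 genes called in the most of the 6 comparisons with mCherry, ties broken by fold change. Genes outside that rule are marked as such. Intervals and floors (3 counts per library) cover counting error only. Alternatives were pseudocounts of 8 and 0.1, no filter, quantile normalization, edgeR 4.0.16 and DESeq2 1.42.0 on recovered reads, only the 2 groups fitted, a replicate block and leaving out each library. Scaling to equal library totals was chosen after seeing the data. The code was tested on simulated data. C3delt14 was not analysed here.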

Additional observations from a re-analysis of the deposited data

How the results depend on the processing

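Single-gene results counted here are all those against mCherry and, in the other comparisons, only the called ones. Uncalled members elsewhere, the delt constructs included, are outside these numbers and the changes of sign listed below. These 59 results gave 767 values under the alternatives. Of those values, 680 kept their direction and side of the threshold, 34 passed it, 42 no longer passed it and 11 changed sign. All 11 were of genes that were not called. The number of members called in FL against mCherry was 6 after quantile normalization and with equal totals, and 4 in edgeR. Those settings called 9506, 12823 and 9502 of all 21584 genes, with 5589, 9238 and 4650 of them lower. In C1+14 against mCherry it was 1 after quantile normalization and 4 in both edgeR and DESeq2, which called 3299, 4038 and 3903 of all genes. Against C1+14, equal totals gave 7 for FL and 2 for C1C3a, and both quantile normalization and fitting only the 2 groups gave 0 for C1C3c. Equal totals called 12615 of all genes for FL, 10459 of them lower, and 12168 for C1C3a, 9578 of them lower, and fitting only the 2 groups called 0 of all genes for C1C3c, against 1641 after quantile normalization. For deltC12345+14 against FL, the number was 1 with a pseudocount of 8, 2 after quantile normalization and 3 with equal totals, which called 7728, 7651 and 11672 of all 19833 genes, with 3638, 4863 and 9712 of them higher. The cause was not tested.

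Leaving out each library in turn gave, against mCherry, 2 to 4 members for FL, 4 to 5 for C3+14, 4 to 6 for C1C3a, 4 to 5 for C1C3b, 3 for C1C3c and 1 to 2 for C1+14. Against C1+14 it gave 2 to 4 for FL, 3 to 4 for C1C3a, 2 to 4 for C1C3b and 0 to 1 for C1C3c, and 4 to 5 for C3+14 against FL. In the table with the delt constructs it gave 0 to 1 in 3 comparisons and 0 for deltC12345+14 against deltC12345delt14. The changes of sign were Gata4 (0.15, against -3.78 without FL replicate 2) and Pdgfra (0.27, against -1.32 without FL replicate 2) in FL without FL replicate 1, Gata4 in C1C3a after quantile normalization (-0.16) and with equal totals (-0.067), and Sox7 in C1C3b without mCherry replicate 2 or C1C3b replicate 1 (0.18 each, with a lowest value of -0.41 without C1C3b replicate 2). Gata6 in C1+14 changed sign in edgeR (0.16), DESeq2 (0.082), with equal totals (0.17), without mCherry replicate 2 (0.10) and without C1+14 replicate 1 (0.50), and was lowest without C1+14 replicate 2 (-0.57).

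Samples share only a replicate number. Deviations of same-numbered samples correlated between -0.10 and 0.05 over 21 pairs of groups in the table with mCherry and between -0.57 and 0.14 over 6 pairs in the other, with 1 above 0.1. With a replicate block, the members called were 2 in FL, 5 in C3+14, C1C3a and C1C3b, 3 in C1C3c and 2 in C1+14 against mCherry, 3, 4, 4 and 1 in FL, C1C3a, C1C3b and C1C3c against C1+14, 5 in C3+14 against FL and 0 in each comparison of the delt constructs, the same numbers as without the block. Pairing the numbers crosswise for deltC12345+14 against deltC12345delt14, chosen after seeing the data, also gave 0. With 2 libraries per group and under 20 reads of Sox7 in each, differences of that gene short of several-fold were not detectable at this depth.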
